A study of Mus musculus with 61 samples.

Results

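Penk, Adora2a and Gpr6 are 3 genes used to mark the indirect-pathway neurons of the striatum, and their rows were taken by symbol from the 55401 gene identifiers of the raw count table, over all 61 libraries and 8 groups. The libraries hold RNA of nuclei sorted by fluorescence from male mice, taken from the nucleus accumbens, which forms the ventral striatum. Every mouse carried LSL-eGFP::L10a, a Cre-dependent green fluorescent tag on a ribosomal protein, together with either D1-Cre or D2-Cre, so that the Cre driver and not the genes described here decided which nuclei were collected. The mice received saline or morphine on 15 days, stayed 30 days in the home cage and were killed 1 h after a challenge with saline or morphine. In a group name the first letter is the repeated treatment and the second the challenge: SS is saline and saline, SM saline and morphine, MS morphine and saline, and MM morphine and morphine. With D1-Cre the SS group had 8 libraries, SM 8, MS 9 and MM 7, and with D2-Cre SS had 7, SM 7, MS 8 and MM 7. The labels assign no dose to a mouse and do not say whether libraries came from separate or pooled animals, so the p-values below measure the spread between these libraries.

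Projection neurons of the striatum fall into a direct-pathway class, which carries the dopamine D1 receptor, and an indirect-pathway class, which carries the D2 receptor. Penk encodes preproenkephalin, which is cut into the enkephalins, opioid peptides that act on delta and mu opioid receptors, the second of which is also the main target of morphine. Adora2a encodes the adenosine receptor that couples to the G protein Golf and raises cyclic AMP, the opposite of what the D2 receptor does in the same cells. Gpr6 encodes an orphan receptor that raises cyclic AMP through Gs without an added ligand. A D2-Cre driver can also mark cholinergic interneurons, which carry the D2 receptor as well.

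On mm10, Penk (ENSMUSG00000045573.9) lies on the minus strand of chromosome 4 from 4133531 to 4138819. Adora2a (ENSMUSG00000020178.6) lies on the plus strand of chromosome 10 from 75316877 to 75334784. Gpr6 (ENSMUSG00000046922.7) lies on the minus strand of chromosome 10 from 41069977 to 41072285. The deposited lengths span whole genes with introns, and exons make up 30.9% of the span of Penk, 17.1% of that of Adora2a and 77.3% of that of Gpr6. At its 5′ end Penk overlaps 499 bases of A830012C17Rik, a gene on the opposite strand. Because the strand setting of the counting is not given, reads of that overlap cannot be assigned, while no annotated gene overlaps Adora2a or Gpr6.

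The sequences below show what these loci hold. The GENCODE M21 transcript Penk-201 has 268 coding codons, in which a search in frame for tyrosine, glycine, glycine, phenylalanine and then methionine or leucine found 7 copies of the enkephalin pentapeptide, 6 ending in methionine and 1 in leucine. All 7 lie in exon 2 and follow a pair of lysine or arginine codons, the kind of site at which prohormone convertases cut, and 5 are also followed by such a pair. Below, the 15 pentapeptide bases are in capitals with 6 bases on either side, 5′ to 3′ on the coding strand, for the first methionine copy, the leucine copy and the 2 copies with no basic pair after them.
Copy 1, methionine, codon 100, chr4:4134328-4134354 minus: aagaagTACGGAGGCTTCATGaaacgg
Copy 6, leucine, codon 231, chr4:4133935-4133961 minus: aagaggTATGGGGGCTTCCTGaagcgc
Copy 4, methionine, codon 187, chr4:4134067-4134093 minus: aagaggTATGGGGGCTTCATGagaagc
Copy 7, methionine, codon 262, chr4:4133842-4133868 minus: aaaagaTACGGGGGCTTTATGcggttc

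For Gpr6 the 250 bases before the RefSeq start (GRCm38.p6, chr10:41072291-41072540, minus strand) are shown because they contain the full cyclic AMP response element, the palindrome TGACGTCA, in capitals, whose first base lies 78 bases before the start.
Gpr6: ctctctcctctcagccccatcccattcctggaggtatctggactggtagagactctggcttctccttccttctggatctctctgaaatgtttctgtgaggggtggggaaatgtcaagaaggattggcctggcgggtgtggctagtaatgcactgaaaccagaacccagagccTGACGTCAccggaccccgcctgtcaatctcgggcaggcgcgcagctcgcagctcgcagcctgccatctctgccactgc
The element, which reads the same on both strands, is held by 508 of 32851 RefSeq windows of the same length (1.55%). The shorter TGACG, on either strand and overlapping the full element, is held by 17.8%. Among the 91 genes with such a window in the fixed lists used below, Gpr6 and 4 others held the full element, namely Flt1, Th, Pcsk1 and Sst. The match describes letters and is not evidence of binding.

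Total counts ran from 11518606 to 26108954 per library. The sort was checked on the receptor genes: the level of Drd2, in CPM (counts scaled by TMM to a common library size), ran from 296 to 2405 in the 29 D2 libraries and from 48.1 to 270.0 in the 32 D1 libraries, with no overlap. Drd1 ran from 5.37 to 27.3 CPM in D2 and from 25.4 to 270.0 in D1. The Cre drivers are named for these receptor genes, so their levels are not independent of the sort. Counts also fell on 1459 olfactory and vomeronasal receptor genes, sensory receptors of the nose, at a mean of 0.490 ± 0.086 CPM per kb in D2 (SD, n = 29) and 0.456 ± 0.124 in D1 (SD, n = 32). This density is called background here. Taken over all gene spans, it would amount to 33.2% to 86.8% of the counts of every library but D1 SS replicate 1. There it would amount to 7.40%. D1 SS replicate 1 stood apart, at 0.0566 CPM per kb. It also held the highest summed level of any D1 library for projection-neuron markers (23155 CPM, against at most 7449 in the others), cortical markers (796 against 210), astrocyte markers (836 against 293) and oligodendrocyte markers (385 against 273). Of the astrocyte markers Slc1a2 stood at 40.8 times background there, while Aqp4, Gfap, Aldh1l1, Slc1a3 and Gja1 lay between 1.04 and 1.94. Of the oligodendrocyte markers Mobp and Mag lay at 1.77 and 1.37, and the others from 2.63 to 24.2. The endothelial sum of this library was the lowest in D1, at 112 CPM against at least 230 in the others. No pair of libraries held identical values.

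Penk and Gpr6 stood above 2 times background in every library, Adora2a did so in every D2 library and in all but 3 of the 32 D1 libraries, and each gene was higher in D2 than in D1 nuclei by about the same factor. Per kb of gene, Penk was the most abundant of them, with 47.9 ± 20.2 CPM per kb in D2 (SD, n = 29), a mean of 105 times background and rank 6 of 20725 protein-coding genes. Gpr6 had 9.50 ± 3.65 CPM per kb in D2 (SD, n = 29), 20.7 times background and rank 31. Adora2a had 4.65 ± 2.16 CPM per kb in D2 (SD, n = 29), 10.2 times background and rank 116. In D1 nuclei the medians were 32.2 times background for Penk, 6.62 for Gpr6 and 3.48 for Adora2a, and the ranks 18, 332 and 1540. The D1 means, 44.4, 8.71 and 4.39, include D1 SS replicate 1 at 201, 34.8 and 26.4 times its low background. The order of Gpr6 and Adora2a depends on the length used. Per kb of exon it reversed, with 155 CPM per kb for Penk, 27.2 for Adora2a and 12.3 for Gpr6 in D2, and 55.9, 9.76 and 4.45 in D1. Gene spans include introns, and the proportions of spliced and unspliced RNA were not tested.

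Penk ran from 129 to 513 CPM in D2 libraries (median 242) and from 22.0 to 209 CPM in D1 libraries (median 80.1). Of the 29 D2 libraries 18 lay above every D1 library, and of the 32 D1 libraries 24 lay below every D2 library, so the 2 distributions overlapped in their tails. Adora2a ran from 32.1 to 187 CPM in D2 (median 79.7) and from 16.6 to 69.1 CPM in D1 (median 28.2). Again 18 of 29 D2 libraries lay above every D1 library. Gpr6, at the lowest counts of the 3, ran from 10.2 to 49.0 CPM in D2 (median 20.1) and from 2.63 to 17.7 CPM in D1 (median 6.73), and 17 of 29 D2 libraries lay above every D1 library. The raw counts behind the Gpr6 values were 190 to 760 per D2 library and 40 to 310 per D1 library.

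**Figure D1:**
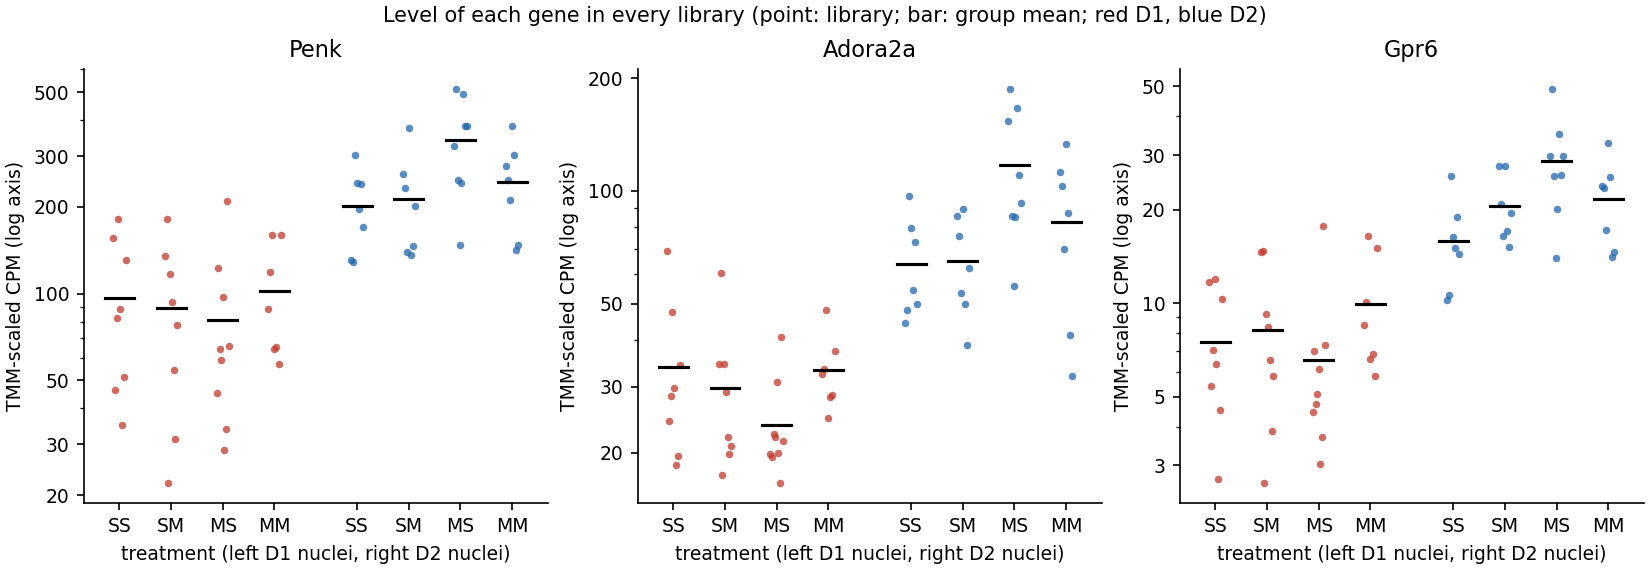
TMM-scaled CPM of Penk, Adora2a and Gpr6 on a log axis in every library, by treatment, with D1 nuclei in red on the left and D2 nuclei in blue on the right. Points are libraries and bars are group means. The MS group is the highest of the 4 D2 groups for each gene, at means of 341, 117 and 28.6 CPM, and the lowest of the 4 D1 groups, at 80.7, 23.7 and 6.58 CPM.

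Averaged over the 4 treatments, the D2 minus D1 difference was a log2 of 1.42 ± 0.19 (SE) for Penk, with an edgeR adjusted p of 4.03e-07. For Adora2a it was 1.41 ± 0.14 (SE, edgeR adjusted p = 3.83e-11), and for Gpr6 1.42 ± 0.16 (SE, edgeR adjusted p = 2.44e-09). These correspond to folds of 2.67, 2.66 and 2.68. In this comparison 129 of 42870 genes passed the threshold of an adjusted p under 0.05 (0.301%), 38 of them higher in D2 (0.0886%), and all 3 genes were among the 38.

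Taken one treatment at a time, the difference was carried past the threshold for all 3 genes in MS alone. In MS, where 32 genes passed (0.0746%, with 0.0513% higher and 0.0233% lower in D2), the log2 was 2.08 ± 0.35 (SE) for Penk with an edgeR adjusted p of 0.000453. It was 2.30 ± 0.26 (SE, edgeR adjusted p = 2.31e-08) for Adora2a and 2.14 ± 0.30 (SE, edgeR adjusted p = 7.4e-06) for Gpr6. In MS the Adora2a libraries did not overlap, since the lowest of 8 D2 libraries had 55.8 CPM and the highest of 9 D1 libraries 40.7 CPM.

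In SS, where 20 genes passed (0.0467%, with 0.0117% higher and 0.035% lower in D2), none of the 3 did. The log2 values there were 1.06 ± 0.37 for Penk, 0.92 ± 0.27 for Adora2a and 1.09 ± 0.31 for Gpr6 (SE), each with an edgeR adjusted p of 0.0983. Without D1 SS replicate 1, the library with the low background, they were 1.19, 1.14 and 1.20 (edgeR adjusted p = 0.924, 0.248 and 0.767). In SM, where 13 genes passed (0.0303%, with 0.00933% higher and 0.021% lower), the values were 1.26, 1.12 and 1.33 with edgeR adjusted p of 0.894, 0.292 and 0.207. The CPM ranges of Gpr6 in SM did not overlap, since the lowest of 7 D2 libraries had 15.2 CPM and the highest of 8 D1 libraries 14.7 CPM. In MM, where 24 passed (0.056%, with 0.0257% higher and 0.0303% lower), Adora2a passed with 1.31 ± 0.29 (SE, edgeR adjusted p = 0.048), while Penk had 1.26 (adjusted p = 0.589) and Gpr6 1.14 (adjusted p = 0.443). The MM call of Adora2a lay near the threshold. Leaving out each of the 14 MM libraries in turn, it was lost 11 times, with log2 values from 1.16 to 1.45. That these differences passed in MS and not in the other treatments does not show that they differed between treatments, which is tested further below.

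The background counts add to both sides of these ratios. Fitted with the background density as a covariate, the mean D2 minus D1 difference was 1.57 ± 0.17 for Penk, 1.55 ± 0.11 for Adora2a and 1.56 ± 0.14 for Gpr6 (SE, edgeR adjusted p = 1.94e-09, 3.27e-16 and 4.71e-12). In that fit Adora2a and Gpr6 passed in all 4 treatments, with 1.30 and 1.39 in SS, 1.37 and 1.53 in SM, 2.13 and 2.04 in MS and 1.40 and 1.27 in MM. Penk passed in MS with 1.96 and had adjusted p of 0.163, 0.0678 and 0.062 in SS, SM and MM.

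**Figure D2:**
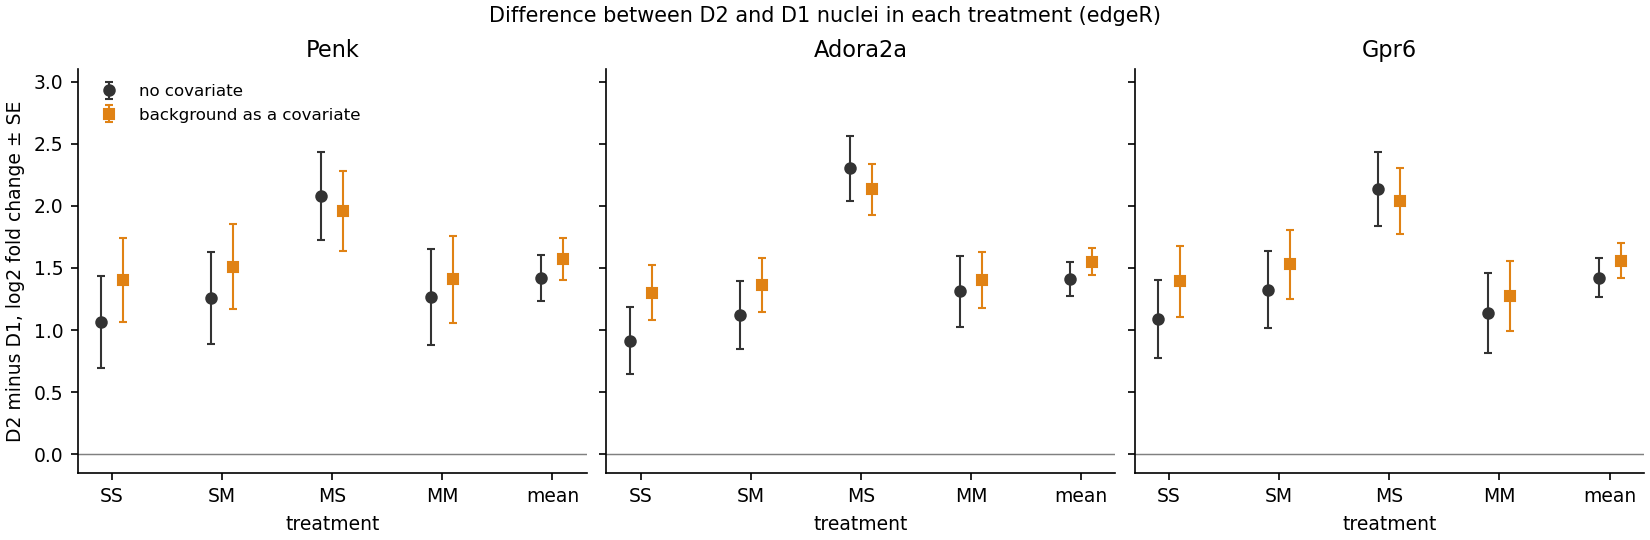
D2 minus D1 log2 fold change of each gene in each treatment and as the mean of the 4, with bars of 1 SE. Black circles are the fit with no covariate and orange squares the fit with the background density as a covariate. Every point lies above 0, the MS points are the highest at 2.08, 2.30 and 2.14 with no covariate, and the covariate raises the SS points and lowers the MS points.

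With background subtracted, the mean D2 density was 2.97 times the D1 density for Penk, 3.64 times for Adora2a and 3.17 times for Gpr6, against 17.1 times for Drd2. D1 nuclei thus held a larger share of the D2 level of these 3 genes than of Drd2, the gene that the D2-Cre driver is named for. Drd2 lay near background in D1, at a median of 2.38 times and under 2 times in 11 of 32 libraries. Its D1 level net of background, and the ratios to it, are therefore less certain. The ratio of each gene to Drd2 in the same library was compared between the kinds of nucleus, a comparison chosen after the values were seen. The D2 minus D1 difference in the log2 ratio to Drd2 was -2.47 for Penk, -2.29 for Adora2a and -2.33 for Gpr6, with a permutation p of 2e-05 for each, two-sided and the smallest that 100000 draws can give (adjusted p = 7.71e-05 over the 27 ratio tests). The labels do not say how pure the sorts were. In bulk RNA of sorted nuclei, more nuclei of a type and more RNA per nucleus cannot be told apart.

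A yardstick internal to each library was made from 9 genes of all striatal projection neurons (Bcl11b, Foxp1, Rgs9, Ppp1r1b, Pde10a, Meis2, Rarb, Gad1 and Gad2), whose densities net of background were summed. In the mean D2 minus D1 difference all 9 had negative log2 values, from -0.54 for Ppp1r1b to -0.01 for Foxp1. None of them passed the threshold. Without D1 SS replicate 1 the values ran from -0.41 for Ppp1r1b to 0.15 for Foxp1. A yardstick that is lower in D2 raises the D2 ratios, and the size of this part was not tested. On this scale Adora2a parted the 2 kinds of nucleus fully. Its log2 ratio to the 9 genes ran from -2.88 to -1.74 in the 29 D2 libraries and from -6.35 to -3.18 in the 32 D1 libraries. All 29 D2 libraries lay above all 32 D1 libraries, and the means were -2.34 ± 0.24 (SD, n = 29) and -4.37 ± 0.68 (SD, n = 32). The difference was 2.03 for Adora2a, 1.99 for Gpr6 and 1.85 for Penk, each with a permutation p of 2e-05 (100000 draws, two-sided, adjusted p = 7.71e-05). For Gpr6, 18 of 29 D2 libraries lay above every D1 library, and for Penk 13 of 29 did.

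**Figure D3:**
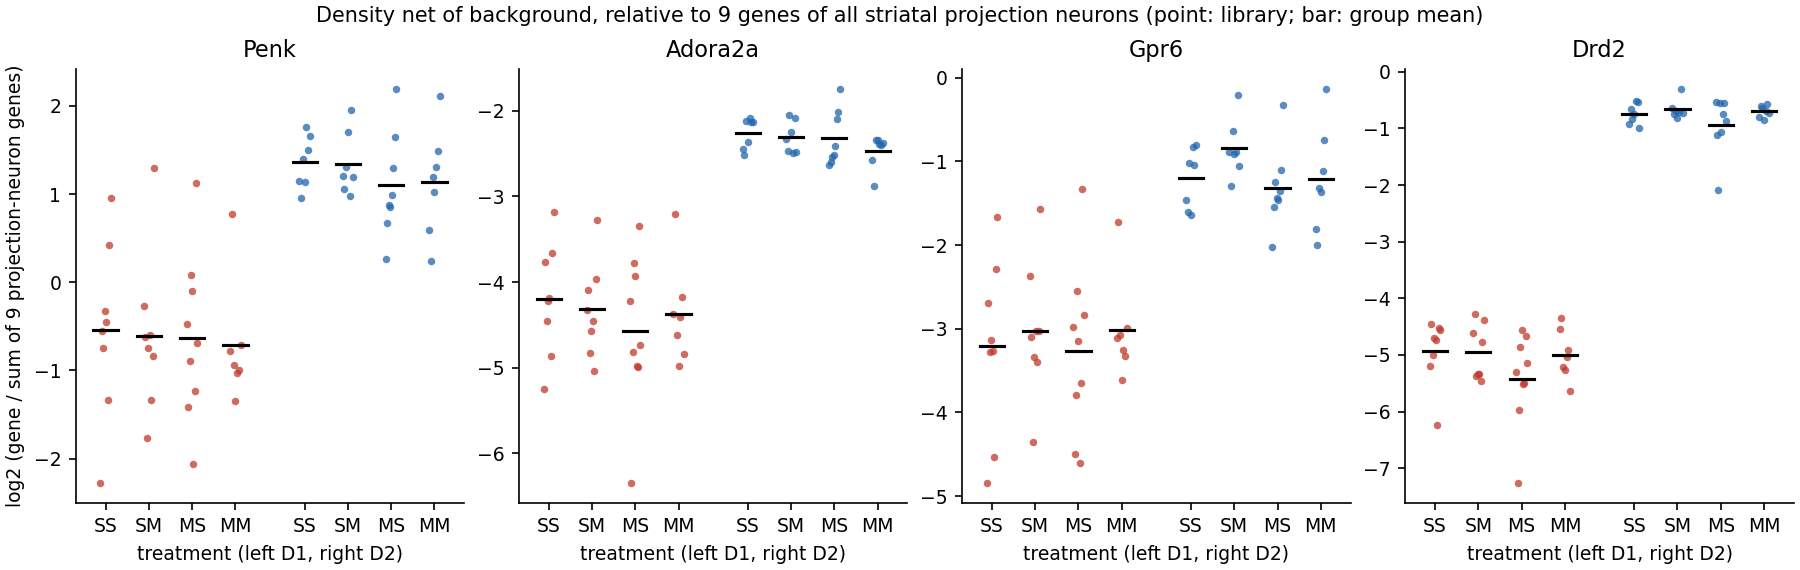
Log2 ratio of the density of Penk, Adora2a, Gpr6 and Drd2, net of background, to the summed density of 9 genes of all striatal projection neurons, per library and treatment, with D1 in red and D2 in blue and bars for group means. The means of the 4 D2 groups run from -2.47 to -2.25 for Adora2a, and the Adora2a and Drd2 values of D2 and D1 libraries do not overlap.

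Within D2 nuclei, the question was whether repeated morphine, the challenge or both moved these genes. Repeated morphine followed by a saline challenge gave the highest levels of all 3, but no difference passed the test. In each gene the D2 groups stood in the order MS, MM, SM, SS by mean, and no neighbours in that order differed past the threshold.

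Penk in D2 nuclei ran from 129 to 303 CPM in SS (median 196), from 136 to 376 in SM (median 201), from 147 to 513 in MS (median 353) and from 142 to 383 in MM (median 248). In MS 5 of 8 libraries lay above every SS library, and the lowest MS library lay inside the SS range. The MS minus SS log2 was 0.75 ± 0.27 (SE, edgeR adjusted p = 0.073).

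Adora2a in D2 nuclei ran from 44.4 to 97.0 CPM in SS (median 54.3), from 38.9 to 89.5 in SM (median 62.2), from 55.8 to 187 in MS (median 101) and from 32.1 to 133 in MM (median 87.1). In MS 4 of 8 libraries lay above every SS library, and in MM 3 of 7 lay above and 2 below every SS library. The MS minus SS log2 was 0.87 ± 0.28 (SE, edgeR adjusted p = 0.0713).

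Gpr6 in D2 nuclei ran from 10.2 to 25.6 CPM in SS (median 15.1), from 15.2 to 27.7 in SM (median 19.5), from 14.0 to 49.0 in MS (median 27.8) and from 14.1 to 32.8 in MM (median 23.5). In MS 5 of 8 libraries lay above every SS library. The MS minus SS log2 was 0.84 ± 0.22 (SE, edgeR adjusted p = 0.0713).

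By edgeR, 0 of 41125 genes passed in MS minus SS in D2 (0%), and 13164 had an unadjusted p under 0.05. DESeq2 called 6838 of the 25178 genes that it gave an adjusted p (27.2%). DESeq2 gave the 3 genes adjusted p of 0.0259 for Penk, 0.0254 for Adora2a and 0.0254 for Gpr6. Leaving out each of the 15 MS and SS libraries in turn, edgeR's adjusted p ran from 0.026 to 0.187 over the 3 genes, and the number of all genes called ran from 0 to 8511. Without D2 MS replicate 4 all 3 passed, at 0.0291, 0.0281 and 0.026. Without D2 MS replicate 8 Adora2a and Gpr6 passed, at 0.0396 and 0.0384, and without D2 MS replicate 5 Gpr6 passed at 0.0498. With a replicate block in edgeR, 8595 genes were called (20.9%), and Adora2a (adjusted p = 0.0453) and Gpr6 (adjusted p = 0.0395) passed. The calls in this comparison changed with single libraries, with the tool and with the block.

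Other quantities moved with the same groups. The mean background density in D2 was lowest in MS, at 0.438 ± 0.073 CPM per kb (SD, n = 8), against 0.514 ± 0.050 in SS (SD, n = 7). With that density as a covariate, the MS minus SS log2 was 0.41 ± 0.21 for Penk, 0.36 ± 0.16 for Adora2a and 0.53 ± 0.18 for Gpr6 (SE, edgeR adjusted p = 0.385, 0.338 and 0.289). The 9 genes of all projection neurons had positive MS minus SS values in 9 of 9 cases with a median log2 of 0.74 and 0 called, while over all 41125 genes the median was -0.05 and 42.2% were positive. Their summed level ran from 2217 to 3630 CPM in SS (median 2828) and from 2597 to 9102 CPM in MS (median 3919). The part of background and of this wider shift in the result was not tested. Relative to those 9 genes in the same library, MS minus SS in D2 was a log2 of -0.27 for Penk, -0.06 for Adora2a and -0.11 for Gpr6 (exact two-sided permutation p = 0.313, 0.637 and 0.626, adjusted p = 0.563, 0.817 and 0.817).

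**Figure D4:**
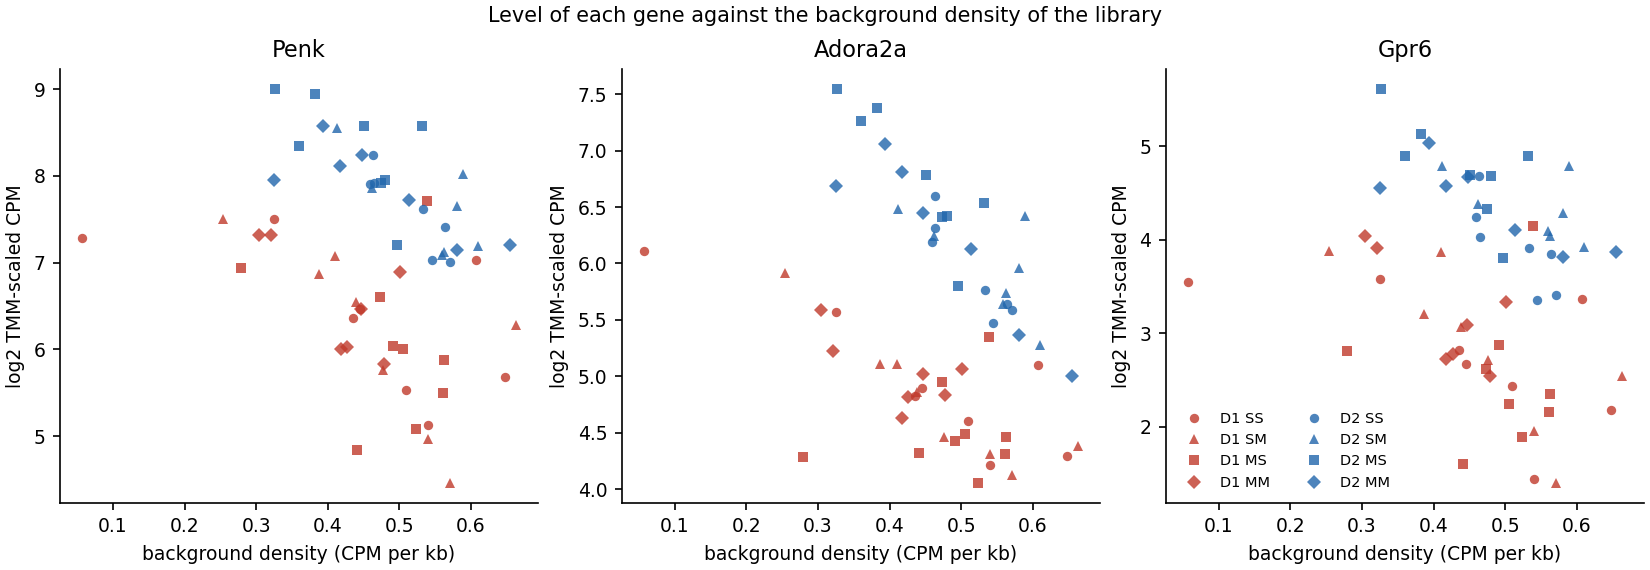
Log2 TMM-scaled CPM of each gene against the background density of the library in CPM per kb, with D1 in red, D2 in blue and a symbol for each treatment. Levels are lower in libraries with more background, with a correlation of -0.75, -0.87 and -0.71 in D2, and the D1 point at the far left is D1 SS replicate 1 at 0.0566 CPM per kb.

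The other comparisons within D2 were smaller. A morphine challenge after repeated saline gave SM minus SS log2 values of 0.08 ± 0.27 for Penk, 0.03 ± 0.28 for Adora2a and 0.38 ± 0.23 for Gpr6 (SE), with approximate 95% intervals of -0.46 to 0.61, -0.53 to 0.58 and -0.08 to 0.83. On the scale of the 9 projection-neuron genes, the SM minus SS difference of Gpr6 was 0.36 (exact two-sided permutation p = 0.0734, adjusted p = 0.18), and the MM minus SS difference of Adora2a was -0.22 (exact two-sided permutation p = 0.0437, adjusted p = 0.146). Neither passed. MM minus SS gave 0.27 ± 0.27, 0.35 ± 0.28 and 0.43 ± 0.23 (SE), and MM minus MS gave -0.49 ± 0.26, -0.51 ± 0.28 and -0.41 ± 0.22 (SE). By edgeR 0 of 41125 genes passed in any of these (0%), with 1333, 5472 and 1548 at an unadjusted p under 0.05, while DESeq2 called 0, 0 and 1. Whether the effect of the challenge depended on the history was tested as an interaction, at -0.56 ± 0.38 for Penk, -0.54 ± 0.40 for Adora2a and -0.78 ± 0.32 for Gpr6 (SE, edgeR adjusted p = 0.991 for each).

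In D1 nuclei the same genes gave no call either in SM, MS or MM minus SS, where edgeR called 0 of 41083 genes (0%), with 770, 1101 and 790 at an unadjusted p under 0.05, and DESeq2 called 0. Their MS minus SS values were all below 0, at -0.25 ± 0.40 for Penk, -0.51 ± 0.24 for Adora2a and -0.19 ± 0.34 for Gpr6 (SE, edgeR adjusted p = 0.848, 0.824 and 0.863). Without D1 SS replicate 1 the values were -0.13, -0.29 and -0.09 (edgeR adjusted p = 1 for each). In D1 the ranges of all 4 groups overlapped for each gene, which does not show that the groups were alike. Relative to the 9 projection-neuron genes, the MS minus SS differences in D1 were -0.09, -0.37 and -0.05 (exact two-sided permutation p = 0.85, 0.356 and 0.92).

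The test of the MS minus SS effect between the kinds of nucleus gave a D2 effect minus D1 effect of 1.02 ± 0.51 for Penk, 1.39 ± 0.38 for Adora2a and 1.04 ± 0.43 for Gpr6 (SE). Their edgeR adjusted p values were 0.201, 0.149 and 0.15, with 0 genes called (0%) and 10571 at an unadjusted p under 0.05. DESeq2 called 6170 of the 22922 genes that it gave an adjusted p (26.9%). Adora2a with an adjusted p of 0.0325 and Gpr6 with 0.0385 were among them. Without D1 SS replicate 1 the edgeR values were 0.89, 1.17 and 0.94 (adjusted p = 0.647 for each). The same differences of effects for SM minus SS were 0.19, 0.21 and 0.23, and for MM minus SS 0.20, 0.40 and 0.04, none of them past the threshold.

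**Figure D5:**
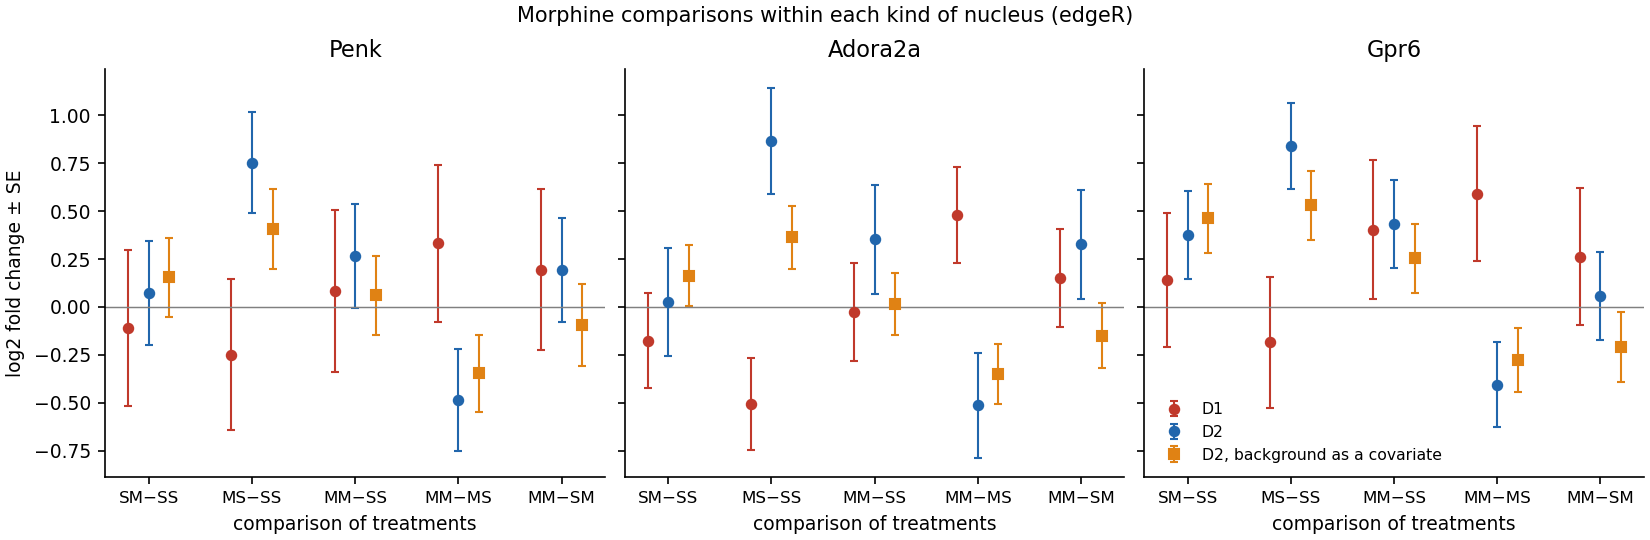
Log2 fold changes between treatments for each gene, with bars of 1 SE, within D1 nuclei (red), within D2 nuclei (blue) and within D2 nuclei with the background density as a covariate (orange). The highest D2 points are MS minus SS, at 0.75, 0.87 and 0.84, and fall to 0.41, 0.36 and 0.53 with the covariate.

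The 3 genes varied together from library to library. Across the 29 D2 libraries the Pearson correlation of log2 levels was 0.92 between Penk and Adora2a, 0.93 between Penk and Gpr6 and 0.90 between Adora2a and Gpr6. These libraries share depth and background, and the correlation of each gene with log2 background was -0.75 for Penk, -0.87 for Adora2a and -0.71 for Gpr6. Adora2a also had 0.97 with Ppp1r1b, the gene of DARPP-32, which both pathways carry, and 0.90 with Drd1. In the 32 D1 libraries Penk and Gpr6 had 0.95. The ratios between the 3 genes, net of background, did not differ past the threshold between D2 and D1 libraries: the log2 of Penk over Adora2a was 3.57 ± 0.31 in D2 (SD, n = 29) and 3.75 ± 0.46 in D1 (SD, n = 32), with a permutation p of 0.0733 and an adjusted p of 0.18. For Penk over Gpr6 the difference was -0.14 (permutation p = 0.0488, adjusted p = 0.146), and for Adora2a over Gpr6 it was 0.05 (permutation p = 0.666, adjusted p = 0.817).

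Among 18792 genes compared over all 61 libraries, the 5 most alike to each gene by Pearson correlation were the other 2 members, Drd2, Sp9 and P2ry1 for every one of the 3. Sp9 encodes a transcription factor of indirect-pathway neurons and P2ry1 a receptor for ADP. The closest pair was Penk and Gpr6, at 0.972, and Adora2a and Drd2 had 0.935. Over the 29 D2 libraries alone the nearest genes were others. Penk was most like Thy1 at 0.976, followed by Aplp1, Ncdn, Itm2c and Slc32a1, the gene of the vesicular GABA transporter. Adora2a was most like Scn4b at 0.981, a sodium channel subunit, followed by St8sia3, Slc8a2, Gabbr1 and Mmp17, and Gpr6 most like Mdh1 at 0.950, followed by Tspyl4, Rab3a, Atp5b and Eef1a2.

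The pathway of each gene was followed through a fixed list. Over all 42870 genes 0.301% passed in the mean D2 minus D1 difference. Of the 4 opioid peptide precursors Penk was higher in D2 and Pdyn, the dynorphin precursor of direct-pathway neurons, was lower, with a mean D2 minus D1 log2 of -2.35 ± 0.14 (SE, edgeR adjusted p = 2.5e-19). Pomc had -0.05 and Pnoc 0.06, and neither passed. None of the 6 genes of enkephalin processing passed, although their medians lay at -0.22 in the mean difference between nuclei and at 0.46 for MS minus SS in D2. Pcsk1n, an inhibitor of a prohormone convertase, had -0.59 (adjusted p = 0.347) between the nuclei, and Cpe, which trims the basic residues left after cutting, had -0.23 (adjusted p = 0.408). Ctsl, of cathepsin L, had -0.21 (adjusted p = 0.175) and Scg5, of the chaperone 7B2, -0.27 (adjusted p = 0.417). Without D1 SS replicate 1 these values were -0.54 for Pcsk1n, -0.09 for Cpe, -0.18 for Ctsl and -0.12 for Scg5. The remaining 2 of the 6, Pcsk1 and Pcsk2, went from -0.09 and -0.12 to -0.02 and 0.06. None of the 5 genes of enkephalin breakdown passed, with Mme, the gene of neprilysin, at 0.07 and 1.34 times background in D2. The other peptidase genes Dpp3, Lnpep and Ace had -0.13, -0.13 and -0.03. Of the 4 opioid receptor genes only Oprd1, of the delta receptor, passed in the mean difference, with 0.54 ± 0.07 (SE, edgeR adjusted p = 6.13e-08). Oprk1, of the kappa receptor, had -0.52 (adjusted p = 0.056), and Oprm1, of the mu receptor, had 0.02 and lay at 1.03 times background in D2. Oprl1, of the nociceptin receptor, had -0.31 (adjusted p = 0.355). Without D1 SS replicate 1 Oprk1 had -0.39 and Oprl1 -0.24.

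Of the 4 adenosine receptor genes Adora2a alone passed between the nuclei. Adora1, whose receptor lowers cyclic AMP, had -0.21 ± 0.13 (SE, edgeR adjusted p = 0.438) and lay at 3.03 times background in D2. Without D1 SS replicate 1 Adora1 had -0.07. Adora2b and Adora3 lay at 1.44 and 0.723 times background. Of 8 genes of adenosine supply and removal 2 passed, beside 0.301% of all genes, and both were higher in D2. Nt5e, the ecto-enzyme that makes adenosine from AMP, had 0.35 ± 0.05 (SE, edgeR adjusted p = 1.53e-05). Adk, which phosphorylates adenosine, had 0.19 ± 0.04 (SE, edgeR adjusted p = 0.00294). Nt5e stood at 2.30 times background in D2 and Adk at 1.32 times. Entpd3, which breaks down extracellular nucleotides, had -0.19 and Slc29a1, an adenosine transporter, -0.27, and neither passed. Without D1 SS replicate 1 they had -0.15 and -0.19. In MS minus SS in D2, Nt5e had 0.27 and Adora1 0.37, and neither passed.

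Of 4 genes in a list of Gs receptors active without ligand, 3 were tested, and Gpr6 alone was higher in D2. Its 2 close relatives went the other way without passing, Gpr3 at -0.23 ± 0.11 and Gpr12 at -0.44 ± 0.16 (SE, edgeR adjusted p = 0.399 and 0.355). Without D1 SS replicate 1 they had -0.155 and -0.34. Gpr12 had an MS minus SS value in D2 of 0.72, near that of Gpr6, and did not pass (adjusted p = 0.0713). The 13 genes of the Golf cascade, which carries the signal of the Adora2a receptor to protein kinase A and DARPP-32, gave 0 calls by edgeR in the mean D2 minus D1 difference and in MS minus SS. The 4 with the smallest p between the nuclei were Ppp1r1b at -0.54, Prkar1b at -0.27, Pde1b at -0.49 and Prkaca at -0.28, none past the threshold. Without D1 SS replicate 1 these 4 had -0.41, -0.15, -0.31 and -0.17. In MS minus SS in D2 all 13 were positive with a median log2 of 0.63, from 0.27 for Prkar1b to 1.11 for Pde1b. Over all 41125 genes in D2 the median was -0.05 and 42.2% were positive. The yardstick genes of all projection neurons were all positive there too, and Ppp1r1b and Pde10a are on both lists. In MS minus SS in D1 all 13 were negative with a median of -0.45. Over all 41083 genes in D1 the median was 0.007 and 51.2% were positive. The D1 SS group includes replicate 1, where Ppp1r1b stood at 197 times its low background and Pde10a at 155. In the other D1 libraries they stood at no more than 69.5 and 17.3. No D1 value of these 13 without that library is given here. Adcy5, the main striatal adenylyl cyclase, had 1.03 in D2 (adjusted p = 0.0744).

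Of 9 tested markers of indirect-pathway neurons, which include the 3 genes, 6 were higher in D2 in the mean difference, beside 0.0886% of all genes, with a median of 0.48 over the list beside 0.01 over all genes. The 3 genes described here are among those 6. Drd2 had 3.31 ± 0.17, Sp9 0.48 ± 0.08 and Ptprm 0.24 ± 0.04 (SE), and Six3, Grik3 and Necab1 did not pass. Sp9 and Ptprm lay near background, with medians of 1.97 and 1.72 times in D2 and 1.37 and 1.49 times in D1. Without D1 SS replicate 1 Grik3 passed with 0.63 (edgeR adjusted p = 2.21e-06) and Necab1 with 0.20 (edgeR adjusted p = 0.0327). Of 9 markers of direct-pathway neurons 7 were lower, beside 0.212% of all genes, with a median of -1.77. The 7 include Drd1 and Sfxn1, which lies beside Drd1 on chromosome 13. Levels of markers of other cells were mixed: 0 of 6 astrocyte, 0 of 6 microglial and 0 of 5 endothelial markers, 1 of 5 cholinergic, 1 of 7 cortical, 2 of 6 oligodendrocyte and 3 of 7 other interneuron markers reached 2 times background. Sst, of somatostatin interneurons, had a median of 16.7 times background in D1 and 7.67 in D2, above Adora2a in D1. Ache, of the enzyme that splits acetylcholine, had 4.53 and 3.59, and Slc17a7, of a glutamate transporter of cortical neurons, 2.13 and 1.68. Sst at -1.27, Npy at -0.45 and Slc17a7 at -1.01 passed as lower in D2, and no marker of these other cells passed as higher. Without D1 SS replicate 1, where Slc17a7 stood at 204 times background, Sst had -1.14 (edgeR adjusted p = 8.04e-05), Npy -0.39 (edgeR adjusted p = 0.000285) and Slc17a7 -0.52 (edgeR adjusted p = 0.06), which no longer passed. The summed cortical level ran from 109 to 210 CPM in the other D1 libraries and from 122 to 169 CPM in the D2 libraries. The cholinergic list ran from 66.1 to 86.2 CPM in sum over the D2 libraries and from 62.6 to 101 over the D1 libraries. The part of other cells in the results was not tested.

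Of 43 other tested genes within 400 kb of the 3 loci, 3 (6.98%) passed in the mean D2 minus D1 difference, where 0.301% of all genes passed. All 3 were higher in D2, one near each locus. A830012C17Rik, which overlaps the 5′ end of Penk, had 0.41 ± 0.04 (SE, edgeR adjusted p = 5.08e-11), with 48.1 ± 5.8 CPM in D2 (SD, n = 29) and 36.0 ± 3.1 in D1 (SD, n = 32). Over its span of 50383 bases this was 2.05 times background in D2 and 1.66 in D1. Upb1, 66.3 kb from Adora2a, had 0.26 (adjusted p = 0.0039) and lay at background, at 1.08 times in D2 and 0.954 in D1. Fig4, 115.9 kb from Gpr6, had 0.23 (adjusted p = 0.028) and lay at 2.24 times background in D2 and 2.19 in D1. Specc1l, 4.1 kb from Adora2a, had -0.04, and Gm32284, 3.1 kb from Gpr6, had 0.18, and neither passed.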

How the data were processed

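Reads were counted by the authors with featureCounts against mm10, and DESeq2 is also named, per the submitters' processing notes. For the aligner, annotation release, tool versions and strand handling, the answer is not given in the sources used here. Raw gene counts and FPKM values were deposited. The counts were tested here. The FPKM values, normalized by the authors for length and depth, served only to recover lengths: for 54281 of 54281 identifiers the length equalled the whole gene span in GENCODE M21 (relative tolerance 1e-06).

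Counts were fitted with edgeR 4.0.16 in R 4.3.3 (TMM, filterByExpr, robust quasi-likelihood, Benjamini-Hochberg adjustment over all genes tested, two-sided, threshold 0.05). Comparisons of nuclei used 42870 genes in 61 libraries, those within D2 used 41125 genes in 29, and those within D1 used 41083 in 32. Background is the density over 1459 receptor genes. Ratios net of background, chosen after the values were seen, were compared by permutation in SciPy, 27 tests in all. Alternatives were DESeq2 1.42.0, its size factors in edgeR, no filter, a replicate block, the background as a covariate, another background and leaving out libraries. One gene of the projection-neuron list is not reported here and is in no ratio or list value. Methods were tested on simulated data with the same spread for every gene and no differences in background, so that test does not cover these features. The members and lists were chosen with earlier results of these data known. Of each list the text names the genes called in the mean D2 minus D1 difference or a D2 comparison and the 4 of smallest p in that mean difference; Adcy5 and 3 markers that did not pass were added after their values were seen. Of each gene, the 5 most alike by Pearson correlation are named. Named neighbours beyond those called are the nearest. Counts and levels carry counting and scaling error, and precision rests mainly on 7 to 9 libraries per group.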

Additional observations from a re-analysis of the deposited data

Results flagged for a closer look

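Of 24 sets of values checked (3 genes in 8 groups), 2 had a library far from the rest of its group, and chance flags about 1 group in 20. The highest Adora2a level among the D1 SM libraries was 60.5 CPM, in replicate 2, with the gap to its nearest neighbour making up 0.601 of the group's range. The highest Gpr6 level among the D1 MS libraries was 17.7 CPM, in replicate 8, with a gap of 0.706 of the range.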

How the results depend on the processing

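The mean D2 minus D1 difference and the MS difference of all 3 genes kept their direction and their side of the threshold under DESeq2, DESeq2 size factors in edgeR, no filter, the replicate block, the background covariate and without D1 SS replicate 1. Single treatments did not. With the covariate Adora2a and Gpr6 passed in SS (1.30 and 1.39) and SM (1.37 and 1.53), and Gpr6 in MM (1.27). Gpr6 passed in SS with DESeq2 size factors (0.95) and DESeq2 (0.93). Adora2a in MM no longer passed with size factors (1.31), no filter (1.31) or the replicate block (1.21), and ran from 1.16 to 1.45 leaving out each MM library. For MS minus SS in D2, DESeq2 passed Penk (0.79), Adora2a (0.91) and Gpr6 (0.88). Leaving out each library gave 0.65 to 0.87, 0.74 to 0.99 and 0.69 to 0.98. The D2 effect minus D1 effect passed by DESeq2 for Adora2a (1.60) and Gpr6 (1.21). The cause of these changes was not tested, and no value reversed.

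Correlations between libraries of the same replicate number ran to both signs. Their means ran from -0.205 for D1 MM with D1 SM to 0.241 for D2 MM with D2 SM. Mixed signs cannot decide whether libraries of the same number share a source of variation. With the replicate block, MS minus SS in D2 passed for Adora2a (0.89) and Gpr6 (0.81), and 8595 genes (20.9%) were called against 0. Counts of all genes called also moved. D2 minus D1 in SS went from 20 (5 higher, 15 lower) to 8241 with size factors (329 higher, 7912 lower) and 9967 with DESeq2 (550 higher, 9417 lower). Of the genes given an adjusted p, these were 0.0467%, 19.2% and 27.5%. With the covariate the counts were 29 in SM against 13, 96 in MS against 32, 118 in MM against 24, and 254 in the mean against 129, split 132 higher and 122 lower against 38 and 91. In MM, DESeq2 called 47 and the fit without D1 SS replicate 1 called 73. For the D2 effect minus D1 effect, DESeq2 called 1 gene in MM minus SS, and in MM minus MS the covariate gave 4 and the fit without D1 SS replicate 1 gave 1. In MM minus MS in D2 DESeq2 and the covariate called 1 each. By Spearman correlation, 1 of the 5 genes most like Penk and 1 of those most like Adora2a over the D2 libraries were shared with the Pearson lists. Leaving out libraries and the second background were chosen after seeing the data. Gpr6 has the fewest counts, and the spread between libraries limits every treatment comparison.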
